A study of Mus musculus with 12 samples.

Results

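Ccr1, Ccr2, Cxcr4 and Ccrl2 are 4 genes for receptors of the chemokine family that macrophages and their precursors use to find their way. They were chosen by symbol, and all 4 were present among the 15555 genes of the count table and among the 12671 genes that passed the filter on low counts and were tested. Macrophages had been grown from the bone marrow of mice of 4 genotypes: wild type, here WT, then Cbl-/- and Cbl-b-/- alone, and finally the double knockout that carries both, here DKO. Each genotype had 3 libraries, 12 in all. Every culture ran to day 9 with L-cell supernatant, which supplies the macrophage growth factor CSF-1, and the RNA is that of the adherent cells, pooled at equal concentrations before library preparation per the labels, which do not say what was pooled. Cbl and Cbl-b are ubiquitin ligases that limit signalling from activated tyrosine kinases, and the design asks how the transcriptome differs when either or both are missing. Mouse strain and age, the design of the alleles and the animal behind each replicate were not given in the sources used here, so that p-values cover only the spread among these libraries, possibly technical.

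Chemokine receptors are cell-surface proteins that cross the membrane repeatedly and, when a chemokine binds, activate inhibitory G proteins that steer cell movement. CCR2 binds CCL2 and its relatives and is known for bringing monocytes out of the marrow and into inflamed tissue, where CCR1, a receptor for CCL3, CCL5 and others, also acts. CXCR4 binds CXCL12 and is known for keeping cells in the marrow. CCRL2 is an atypical member of the family: it binds chemerin and presents it to the chemerin receptor rather than driving migration through G proteins.

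Total counts ranged from 21048103 to 43946503 per library. Levels are given as CPM, a library's counts scaled by TMM factors to a common total, and the targeted gene Cbl stood at 140 ± 3.4 CPM (SD, n = 3) for WT and 139 ± 3.0 for Cbl-b-/-, against 51.5 ± 2.3 for Cbl-/- and 37.6 ± 3.1 for DKO. Cblb stood at 59.4 ± 3.5 CPM for WT and 68.5 ± 0.69 for Cbl-/-, against 52.8 ± 2.9 for Cbl-b-/- and 71.7 ± 3.2 for DKO (SD, n = 3), so the Cblb counts do not bear out the last 2 labels. A disruption that leaves the transcript standing is invisible to such counts, so every direction drawn for these groups rests on their labels, and they are named by label throughout. All 12 macrophage markers, among them Csf1r, Cd68 and Lyz2, were above 1 CPM on average in each genotype, and under the DKO label 2 of them rose and 7 fell (19.1% of all genes tested were called higher there and 16.3% lower). Beside them, the summed level of 8 monocyte markers was 17.0 to 20.8 CPM in WT, 29.4 to 34.1 in Cbl-/-, 25.0 to 28.5 in the libraries with the label Cbl-b-/- and 105 to 131 in those labelled DKO, where all 8 were above 1 CPM on average against 3 in WT. Of the 8, 1 was called higher in Cbl-/- (5.68% of all genes) and 1 under the label Cbl-b-/- (0.489% of all genes called). Under the DKO label 7 were called higher, all but F13a1, and 0 of the 8 fell in any of these groups. In each group Vcan made up most of the sum. Its level was 12.3 to 13.6 CPM in WT and 25.0 to 29.6 in Cbl-/-. Under the label Cbl-b-/- it was 20.1 to 22.4 CPM, and under the DKO label 66.6 to 86.6. The 7 neutrophil markers with a row in the table summed to 12.7 to 15.3, 12.6 to 13.4, 13.1 to 17.1 and 78.8 to 100.02 CPM in the same order. In WT Csf3r made up most of this sum. Its level was lower in every Cbl-/- library than in any WT library, so the sum hides the course of the other markers. Of the 6 neutrophil markers tested, 2 were called higher in Cbl-/- (5.68% of all genes), where limma voom called 1. Under the label Cbl-b-/- 0 were called, and under the DKO label 5 were called higher (19.1% of all genes). By edgeR 0 of the 6 fell in these groups. The mature-neutrophil gene Ly6g and the granule genes Mpo and Elane, on the same list, had no row, nor had Camp and Retnlg. Every gene with a row had at least 1 count in WT 1, so the levels of these genes in the other libraries are not known. The 6 stromal and endothelial markers with a row summed to 3.46 to 5.68 CPM in WT, 4.93 to 8.42 in Cbl-/-, 2.19 to 3.08 under the label Cbl-b-/- and 12.9 to 16.3 under the DKO label, where 4 of the 5 tested rose. The dendritic cell markers summed to 1.11 to 1.36 CPM in WT and 3.10 to 3.404 under the DKO label, and the erythroid and megakaryocyte markers to 62.7 to 75.0 and 29.1 to 33.6, where both that were tested fell. The part of such cells in the results on the receptors was not tested, and in bulk RNA fewer or more cells of a type cannot be told apart from less or more RNA per cell.

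Ccr1 (ENSMUSG00000025804) lies on chromosome 9 of GRCm38 at 123962124 to 123968692, and Ccr2 (ENSMUSG00000049103) in the same receptor gene cluster at 124101950 to 124113557. Ccrl2 (ENSMUSG00000043953) lies further up chromosome 9 at 111054486 to 111057519, and Cxcr4 (ENSMUSG00000045382) on chromosome 1 at 128588199 to 128592293. Cbl itself is on chromosome 9, at 44142976 to 44234049. No other annotated gene overlapped any of the 4. Of the stretches of 50 bases in their transcripts, 1.91% of those of Ccr2 and 0 of those of the other 3 also occurred in a transcript of another gene.

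The bases just before the start site are shown for the 3 genes that moved most in the DKO-labelled libraries, Ccr1 and Ccrl2 upwards and Cxcr4 downwards. They are the 250 bases upstream in RefSeq's GRCm38.p6, chr9:123968693-123968942 for Ccr1, chr9:111057519-111057768 for Ccrl2 (the most upstream of its 3 entries) and chr1:128592300-128592549 for Cxcr4, all on the minus strand. Capitals mark the only match to the motifs searched.
Ccr1: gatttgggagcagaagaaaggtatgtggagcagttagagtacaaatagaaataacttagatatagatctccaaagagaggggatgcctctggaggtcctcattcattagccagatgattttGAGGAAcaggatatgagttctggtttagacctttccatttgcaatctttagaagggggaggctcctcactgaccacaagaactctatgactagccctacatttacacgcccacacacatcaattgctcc
Ccrl2: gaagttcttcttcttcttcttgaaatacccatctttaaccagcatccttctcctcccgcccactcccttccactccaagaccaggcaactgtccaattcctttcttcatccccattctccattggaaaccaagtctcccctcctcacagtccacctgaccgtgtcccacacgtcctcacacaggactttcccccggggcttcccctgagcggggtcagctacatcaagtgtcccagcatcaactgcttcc
Cxcr4: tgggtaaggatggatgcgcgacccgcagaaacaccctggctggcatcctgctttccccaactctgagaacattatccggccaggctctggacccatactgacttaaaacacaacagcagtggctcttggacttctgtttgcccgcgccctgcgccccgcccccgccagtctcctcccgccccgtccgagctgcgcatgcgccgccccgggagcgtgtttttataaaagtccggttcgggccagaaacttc
The motifs, searched on both strands and not overlapping one another here, were the interferon-stimulated response element, TTCNNNGAA (a STAT site), an NF-kB site, TGANTCA (an AP-1 site) and GAGGAA (the ETS core that PU.1 uses). GAGGAA occurred once in Ccr1, 129 bases before the start, and in 23.3% of the 32851 promoter windows of this length. The other motifs occurred in 2.98%, 7.02%, 0.356% and 6.75% of all windows, in the order given, and those exact letters are not in the 3 windows shown. Looser forms of these sites were not searched, so their absence is not shown. The Cxcr4 window was 61.2% G and C, against 54.0% for Ccrl2, 43.6% for Ccr1 and a median of 52.4% over all windows.

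Cxcr4 fell in Cbl-/- macrophages and fell further in the DKO-labelled libraries. In WT it had 108, 105 and 124 CPM, in Cbl-/- 66.6, 68.8 and 66.1, in the libraries with the label Cbl-b-/- 111, 93.9 and 86.5, and in those labelled DKO 39.1, 41.7 and 35.0. The 3 libraries labelled DKO were the lowest of all 12 and the 3 of Cbl-/- the next lowest, while those labelled Cbl-b-/- overlapped WT. The log2 fold change of Cbl-/- against WT was -0.74 (SE 0.09, adjusted p = 2.2e-05). That of the DKO-labelled libraries was -1.54 (SE 0.09, adjusted p = 2.0e-09), a 2.92-fold lower level, and against Cbl-/- it was -0.80 (SE 0.09, adjusted p = 5.8e-06). Between the labels Cbl-b-/- and WT the difference of -0.21 did not pass (adjusted p = 0.57, 95% interval -0.40 to -0.03), and the libraries with the label Cbl-b-/- were above Cbl-/- by 0.53 (SE 0.09, adjusted p = 9.9e-04). From lowest to highest the order was thus DKO, Cbl-/-, Cbl-b-/- and WT, of which only the neighbours Cbl-b-/- and WT did not differ past the threshold. The log2 fold changes of both single knockouts add to -0.95, and the DKO-labelled libraries departed from that sum by -0.59 (SE 0.13, adjusted p = 0.0039).

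Ccr1 rose in Cbl-/- and reached its highest levels in the DKO-labelled libraries. It had 20.7, 20.7 and 19.97 CPM in WT, 27.9, 31.4 and 27.3 in Cbl-/-, 21.5, 24.0 and 21.6 in the libraries with the label Cbl-b-/-, and 36.0, 38.4 and 46.5 in those labelled DKO. The 4 groups did not overlap, although WT and the label Cbl-b-/- lay less than 1 CPM apart at their nearest. Against WT the log2 fold change was 0.49 in Cbl-/- (SE 0.09, adjusted p = 0.0022) and 0.98 in the DKO-labelled libraries (SE 0.09, adjusted p = 5.2e-07), a 1.97-fold higher level. In those labelled Cbl-b-/- it was 0.13, which did not pass (adjusted p = 0.86, 95% interval -0.07 to 0.33). The DKO-labelled libraries were above Cbl-/- by 0.49 (SE 0.09, adjusted p = 7.0e-04) and above those labelled Cbl-b-/- by 0.85 (SE 0.09, adjusted p = 3.1e-06). The label Cbl-b-/- was below Cbl-/- by -0.36 (SE 0.09, adjusted p = 0.025), a call that was lost without Cbl-/- 1 (-0.39), Cbl-/- 2 (-0.30), Cbl-b-/- 1 (-0.34) or Cbl-b-/- 3 (-0.34). The departure from the sum of the single knockouts was 0.35 (SE 0.13) and did not pass (adjusted p = 0.080), but passed without DKO 1 (0.43, adjusted p = 0.034).

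Ccr2 rose in Cbl-/- and under the DKO label, where 1 library stood above the others. It had 44.3, 45.5 and 42.9 CPM in WT, 56.6, 58.0 and 63.2 in Cbl-/-, 56.0, 58.0 and 63.7 in the libraries with the label Cbl-b-/-, and 62.7, 65.0 and 91.8 in those labelled DKO. All 9 libraries outside WT were above the 3 of WT, the groups labelled Cbl-/- and Cbl-b-/- overlapped almost wholly, and DKO 3 stood above its 2 partners. The log2 fold change against WT was 0.73 in the DKO-labelled libraries (SE 0.11, adjusted p = 1.2e-04), and 0.53 without DKO 3. In Cbl-/- it was 0.42 (SE 0.11, adjusted p = 0.026), a call lost without WT 1 (0.42), WT 2 (0.44), WT 3 (0.40), Cbl-/- 2 (0.44) or Cbl-/- 3 (0.37). In the libraries with the label Cbl-b-/- the difference was of the same size, 0.42 (SE 0.11), and did not pass by edgeR (adjusted p = 0.19, 95% interval 0.18 to 0.66), while DESeq2 called it (adjusted p = 0.033), as did a fit of those 2 genotypes alone (adjusted p = 0.0046).

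Between the knockouts, Ccr2 in the DKO-labelled libraries exceeded those labelled Cbl-b-/- by 0.31 (SE 0.11, adjusted p = 0.044) and Cbl-/- by 0.31 (SE 0.11, adjusted p = 0.051), the second just short of the threshold. The first call was lost without DKO 3 (0.11), Cbl-b-/- 1 (0.27) or Cbl-b-/- 2 (0.29), and the second was gained without DKO 1 (0.41) or DKO 2 (0.38) and with replicates blocked by number (0.29, adjusted p = 0.030). The labels Cbl-b-/- and Cbl-/- differed by -0.0035 (adjusted p = 0.99, 95% interval -0.24 to 0.24). Ccr2 in the DKO-labelled libraries did not depart past the threshold from the summed single-knockout changes of 0.84 (departure -0.11, SE 0.16, adjusted p = 0.70, 95% interval -0.45 to 0.22). Without DKO 3 that departure was -0.31 and passed (adjusted p = 0.011). Ccr2 is itself a monocyte gene. The summed monocyte markers given above, mostly Vcan, were highest in the DKO-labelled libraries, and any link to the level of Ccr2 was not tested.

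Ccrl2 was the least abundant of the 4 and rose in the DKO-labelled libraries. Its counts were 71 to 400 reads per library. It had 3.28, 3.13 and 3.57 CPM in WT, 3.19, 4.42 and 3.98 in Cbl-/-, 4.97, 4.63 and 3.26 in the libraries with the label Cbl-b-/-, and 8.70, 8.30 and 9.70 in those labelled DKO. The 3 libraries labelled DKO stood clear of the other 9, which overlapped one another. The log2 fold change against WT was 1.42 there (SE 0.16, adjusted p = 3.4e-06), a 2.68-fold higher level. It was 0.21 in Cbl-/- (adjusted p = 0.53, 95% interval -0.14 to 0.57) and 0.38 in the libraries with the label Cbl-b-/- (adjusted p = 0.62, 95% interval 0.03 to 0.74), neither past the threshold. The DKO-labelled libraries were above Cbl-/- by 1.21 (SE 0.16, adjusted p = 3.0e-05) and above those labelled Cbl-b-/- by 1.04 (SE 0.16, adjusted p = 9.2e-05), and the labels Cbl-b-/- and Cbl-/- differed by 0.17 (adjusted p = 0.62, 95% interval -0.18 to 0.53). The single-knockout changes add to 0.60, and the DKO-labelled libraries exceeded that sum by 0.83 (SE 0.23, adjusted p = 0.022), a call lost without WT 3 (0.78) or Cbl-/- 1 (0.71).

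**Figure D1:**
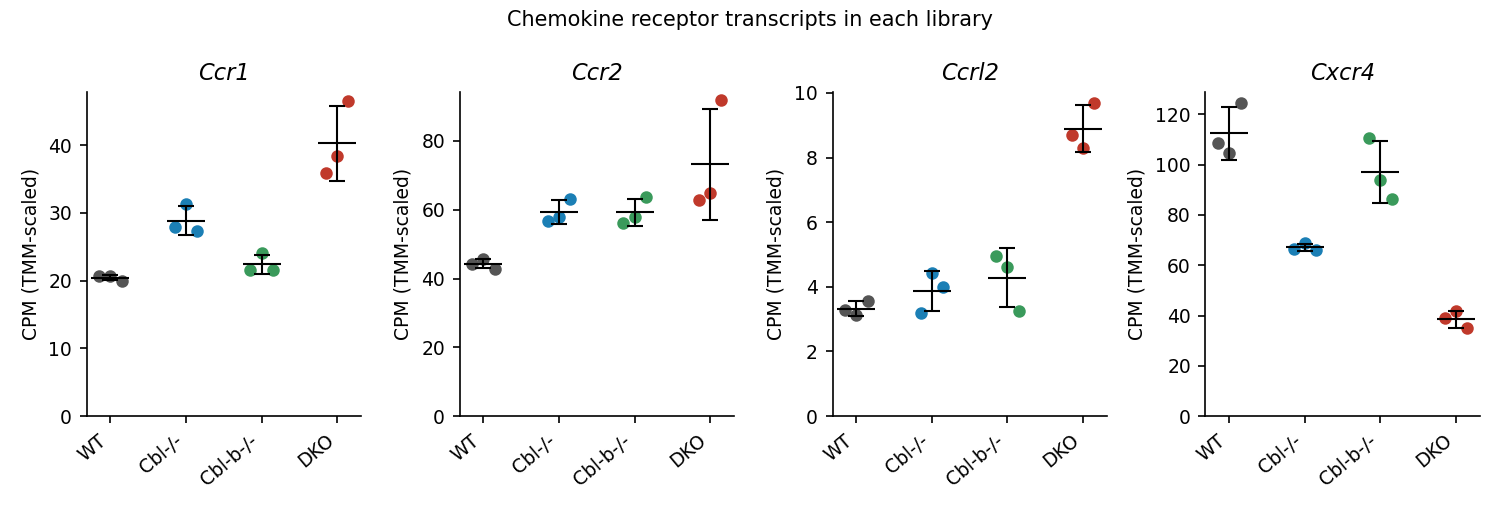
CPM of each receptor transcript (vertical axes, from 0) in the 12 libraries by genotype label (horizontal axes); points are libraries and bars the mean ± SD of 3. The DKO-labelled libraries lie above all others for Ccr1 and Ccrl2 and below all others for Cxcr4, and 1 Ccr2 library labelled DKO lies at 91.8 CPM.

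In number, 3 of the 4 receptor genes passed in Cbl-/-, 2 higher and 1 lower, where 9.87% of all genes tested passed, 5.68% higher and 4.19% lower. In the DKO-labelled libraries 4 of 4 passed, 3 higher and 1 lower, where 35.4% of all genes did, 19.1% higher and 16.3% lower. In the libraries with the label Cbl-b-/- edgeR called 0 of 4, where 0.489% of all genes passed. There 3 of 4 had an unadjusted p under 0.05, DESeq2 called 1 and limma voom 0. Between the knockouts, 3 of 4 passed for the labels DKO against Cbl-/- (29.6% of all genes), 4 of 4 for DKO against Cbl-b-/- (33.2%) and 2 of 4 for Cbl-b-/- against Cbl-/- (7.37%). For the departure from the sum of the single knockouts 2 of 4 passed, against 15.7% of all genes. All comparisons with WT rest on the same 3 WT libraries.

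**Figure D2:**
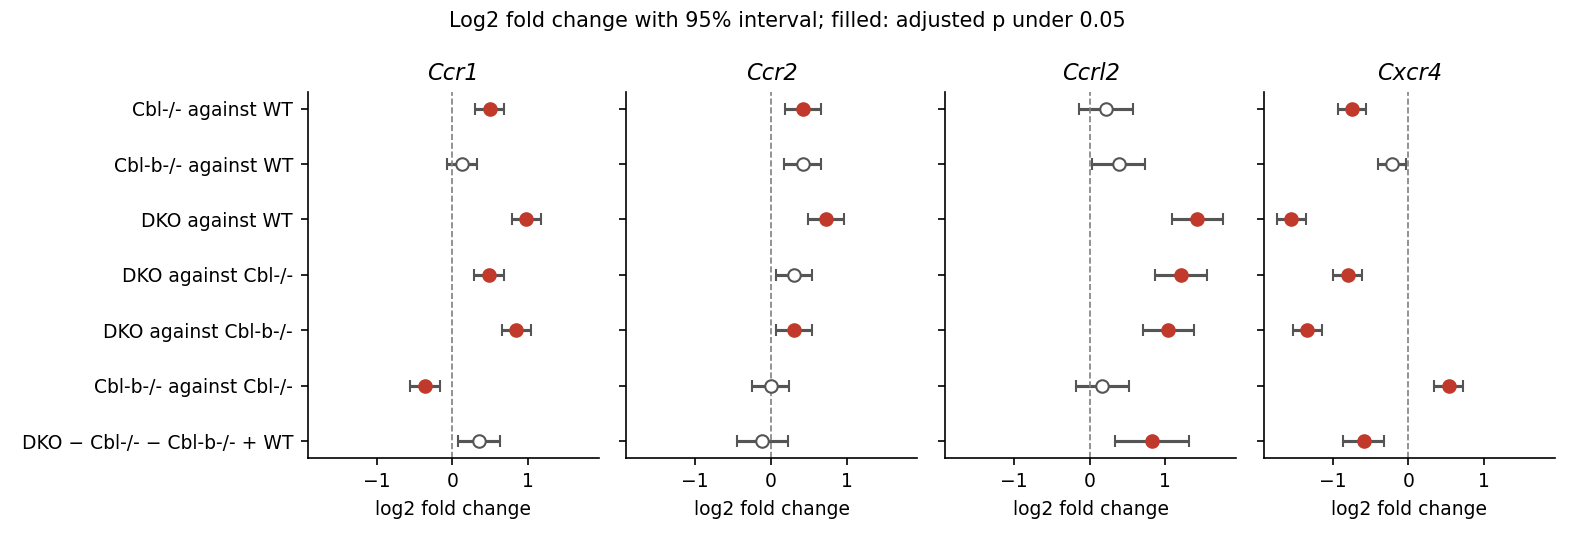
Log2 fold change (horizontal axes) of each receptor in the 6 comparisons of genotypes and in the departure of DKO from the sum of both single knockouts (vertical axis); points are estimates over 3 libraries a group, bars the 95% interval, and filled points have an adjusted p under 0.05. Cxcr4 lies below 0 in the comparisons with WT. The departure interval lies below 0 for Cxcr4 and above 0 for Ccrl2 and Ccr1, and that of Ccr1 did not pass after adjustment.

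Levels of different genes were compared per kilobase of merged exons (RPKM, computed from CPM and GENCODE exon lengths). Cxcr4 was the most abundant of the 4 in every genotype, with 62.2 ± 5.8 RPKM in WT (SD, n = 3), 37.2 ± 0.79 in Cbl-/-, 53.6 ± 6.8 in the libraries with the label Cbl-b-/- and 21.4 ± 1.9 in those labelled DKO. Its WT level was above that of 94.4% of the genes tested, and its level in the DKO-labelled libraries above that of 81.3%. Ccr1 and Ccr2 were close, at 7.22 ± 0.15 and 6.54 ± 0.19 RPKM in WT and 14.2 ± 2.0 and 10.8 ± 2.4 in the DKO-labelled libraries (SD, n = 3). Ccrl2 went from 1.28 ± 0.087 to 3.43 ± 0.28 RPKM between the same groups. Within single libraries, the ratio of Cxcr4 to Ccr2 per exon length was 8.59 to 10.8 for WT, 3.91 to 4.43 for Cbl-/-, 5.08 to 7.38 in the libraries with the label Cbl-b-/- and 1.43 to 2.40 in those labelled DKO. These 4 ranges did not overlap, and the lowest ratio was that of DKO 3.

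**Figure D3:**
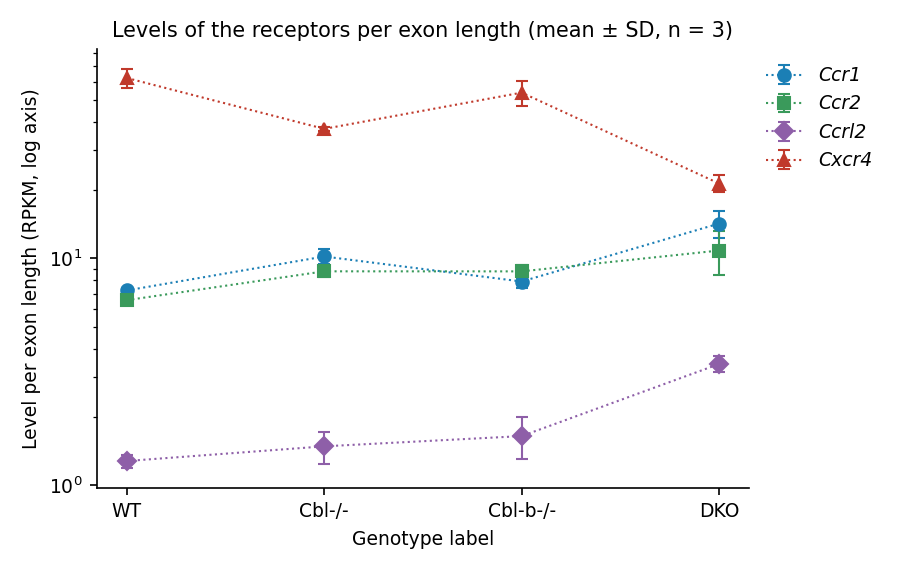
Level per exon length (RPKM, log axis) of the 4 receptors in each genotype label (horizontal axis); points are means and bars the SD of 3 libraries, and the dotted lines only join points of a gene. Cxcr4 and the other 3 receptors come closer together in the DKO-labelled libraries, where Cxcr4 had 21.4 and Ccr1 14.2 RPKM.

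Of 13 listed ligands of the receptors, 11 had a row in the table and 9 were tested, without Cxcl12, whose product binds CXCR4, and the chemerin gene Rarres2. In the DKO-labelled libraries all 9 rose, although those of Mif overlapped WT, where 19.1% of all genes were called higher, with a median log2 fold change of 1.25 beside -0.0029 over all genes tested. Among the same 9, Cbl-/- had 4 that rose, 0 that fell and 5 short of the threshold (5.68% of all genes were called higher, median 0.44 beside -0.0065). In the libraries with the label Cbl-b-/- edgeR called 0 of 9 (median 0.034 beside 0.00060), with 1 at an unadjusted p under 0.05 and 0 called by DESeq2 or limma voom.

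Ccl2, the principal CCR2 ligand, had 128 to 153 CPM in WT and 559 to 614 in the DKO-labelled libraries, and rose by 2.08 (SE 0.09, adjusted p = 2.7e-11). It rose by 0.70 in Cbl-/- (SE 0.08, adjusted p = 2.3e-05), to 206 to 232 CPM. Ccl7, another CCR2 ligand, went from 15.4 to 21.1 CPM in WT to 189 to 261 in the DKO-labelled libraries (log2 fold change 3.67, SE 0.17, adjusted p = 6.5e-09). Both ligand genes thus moved more than Ccr2 itself, whose changes were 0.42 in Cbl-/- and 0.73 in the DKO-labelled libraries. Ccl9, a CCR1 ligand abundant in these cells, had 456 to 526 CPM in WT and 1013 to 1359 in the DKO-labelled libraries (1.25, SE 0.09), and rose by 0.58 in Cbl-/-. Ccl3, which also binds CCR1, rose by 1.13 in the DKO-labelled libraries (SE 0.11) and was at 0.07 in Cbl-/- (adjusted p = 0.80), and Ccl4 rose by 1.36 and 0.44. The CXCR4 ligand Cxcl12 was at most 0.318 CPM in any library, and Rarres2, the chemerin gene, at most 0.130 CPM, and neither was tested. Proteins in the medium are not measured by these counts.

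Of 24 other receptors for chemokines and related attractants, 19 had a row and 16 were tested. In the DKO-labelled libraries 7 rose, 4 fell and 5 did not pass, with a median of 0.68 beside -0.0029 over all genes, of which 19.1% were called higher and 16.3% lower. In Cbl-/- 4 rose, 1 fell and 11 did not pass, with a median of 0.22 beside -0.0065 (5.68% of all genes higher, 4.19% lower). In the libraries with the label Cbl-b-/- 2 rose, 0 fell and 14 did not pass, with a median of 0.12 beside 0.00060 (0.489% of all genes called). Of the 8 with at least 5 CPM in 3 libraries, 3 rose and 4 fell under the DKO label, with a median of -0.31, and without WT 2 the full 16 gave 4 that rose and 4 that fell under that label. Cx3cr1, the fractalkine receptor of resident macrophages, moved in the direction of Cxcr4, with 655 to 734 CPM in WT, 492 to 508 in Cbl-/- and 324 to 359 in the DKO-labelled libraries. Its log2 fold changes were -0.47 (SE 0.06, adjusted p = 2.4e-05) and -1.04 (SE 0.06, adjusted p = 9.7e-10), and -0.12 in the libraries with the label Cbl-b-/- (adjusted p = 0.64). Ptafr, the receptor of platelet-activating factor, rose by 0.20 in Cbl-/- (SE 0.06, adjusted p = 0.034) and by 0.79 in the DKO-labelled libraries (SE 0.06, adjusted p = 1.9e-08). The C5a receptor genes followed neither course: C5ar1 rose by 1.64 in Cbl-/- and by 1.03 in the libraries with the label Cbl-b-/- and fell by 1.28 in those labelled DKO. C5ar2 rose by 3.18 and 2.57 and fell by 1.34 in the same order.

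**Figure D4:**
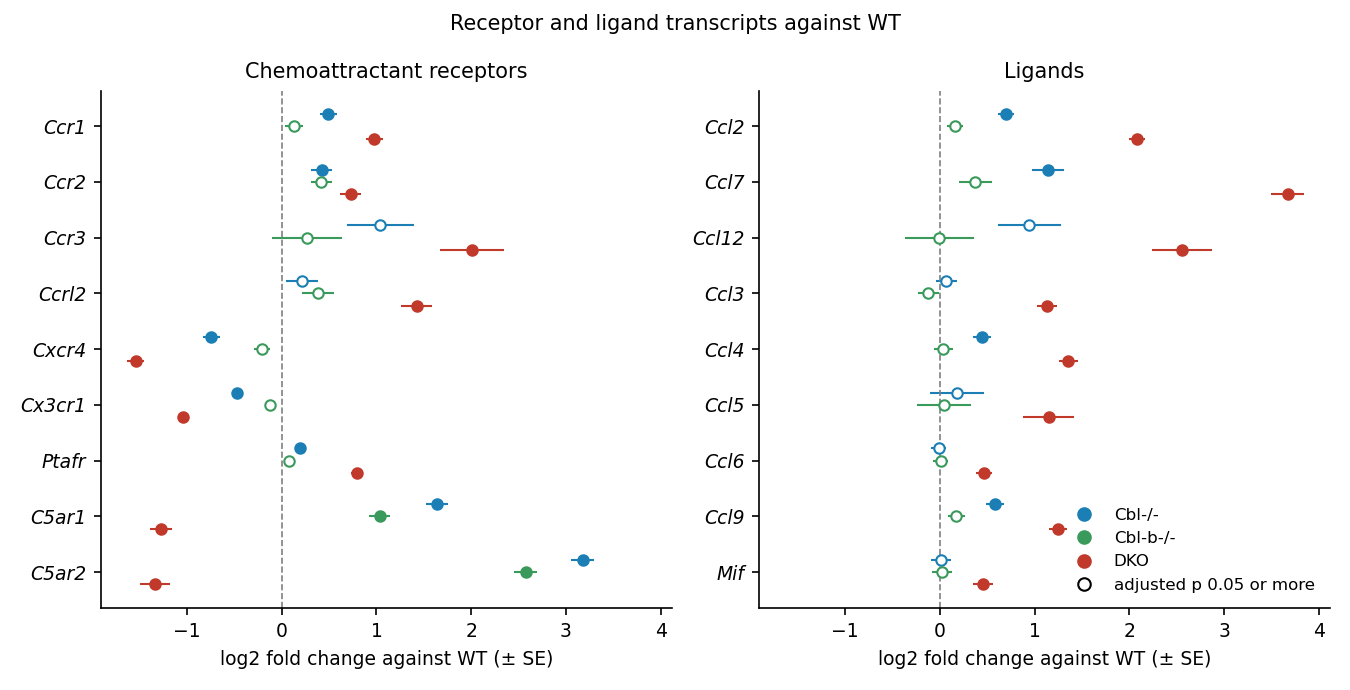
Log2 fold change against WT (horizontal axes) of named receptors (left) and of the 9 tested ligands (right), by genotype label; points are estimates over 3 libraries a group, bars the SE, and open points have an adjusted p of 0.05 or more. All 9 ligand points of the DKO-labelled libraries lie above 0, from 0.45 for Mif to 3.67 for Ccl7.

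Genes of the machinery below the receptors moved in both directions. Of 23 genes for G proteins, arrestins, receptor kinases, RGS proteins and the phospholipases and kinase that G proteins activate, 8 rose and 8 fell under the DKO label, with 7 short of the threshold (median 0.021), where 19.1% of all genes were called higher and 16.3% lower. Gng2, a G protein gamma subunit, fell by 0.60 (SE 0.05), from 129.5 ± 4.7 to 85.5 ± 2.0 CPM (SD, n = 3). Arrb2, whose arrestin ends receptor signalling and carries receptors inside, fell by 0.54 (SE 0.06), and Pik3cg, the kinase that chemokine receptors activate through G proteins, by 0.47 (SE 0.06). Plcb2, a phospholipase, rose by 0.57 (SE 0.07). In Cbl-/- 1 rose, Gna13 (0.25), 3 fell, Rgs10 (-0.47), Rgs2 (-0.63) and Gng2 (-0.21), and 19 did not pass, beside 5.68% of all genes called higher and 4.19% lower. In the libraries with the label Cbl-b-/- edgeR called 0 of 23, with 1 at an unadjusted p under 0.05 and 0 called by DESeq2 or limma voom.

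Among 26 genes of adhesion and cell movement, 6 rose and 5 fell under the DKO label and 15 were short of the threshold, with a median of -0.016, where 19.1% of all genes were called higher and 16.3% lower, so the list lay near the background. The integrin gene Itgal fell by 0.73 (SE 0.08), its partner Itgb2 rose by 0.38 (SE 0.05) and the GTPase gene Rac2 by 0.44 (SE 0.06). In Cbl-/- 1 of the 26 rose and 0 fell, where 9.87% of all genes passed. Under the label Cbl-b-/- edgeR called 0 of 26, with 2 at an unadjusted p under 0.05 and 0 called by DESeq2 or limma voom.

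The genes next to the receptors were read from the same fit. Of the coding genes within 250 kb, 7 near Ccr1, 6 near Ccr2, 2 near Cxcr4 and 7 near Ccrl2 were tested, the windows of Ccr1 and Ccr2 overlapping. Near Ccr1 3 of 7, Ccr2 itself included, rose and 0 fell in the DKO-labelled libraries, where 19.1% of all genes were called higher and 16.3% lower. Among them was Ccr3, the receptor of eosinophils, 53.3 kb from Ccr1, at 0.874 ± 0.19 CPM in WT and 3.52 ± 0.94 in the DKO-labelled libraries (SD, n = 3; log2 fold change 2.00, SE 0.34, adjusted p = 2.3e-04). The non-receptor neighbours Lztfl1 and Fyco1 were at 0.26 and -0.07 there (adjusted p = 0.12 and 0.43). Near Cxcr4, Mcm6 was at -0.15 (adjusted p = 0.051) and Dars at 0.09 (adjusted p = 0.37), so neither passed where Cxcr4 fell by 1.54. Near Ccrl2, 2 of 7 rose and 2 fell in the DKO-labelled libraries. Ltf, a neutrophil granule gene 11.7 kb away, rose from 0.771 ± 0.29 to 9.83 ± 0.83 CPM (SD, n = 3; 3.65, adjusted p = 1.3e-08), a larger change than that of Ccrl2, and Prss46 rose by 0.96. Als2cl fell by 0.37 there (adjusted p = 0.0085) and rose by 0.40 in Cbl-/- (adjusted p = 0.014).

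The genes whose levels ran most alike were found by Pearson's r of log2 CPM over the 12 libraries, among 10311 genes, as a description. The libraries fall into the same genotype groups for every gene, so high values are common. For Cxcr4 they were Zfp629 (0.99), Rab31 (0.99) and the chemokine Cxcl14 (0.98), the last at 89.0 ± 1.2 CPM in WT, 45.1 ± 1.1 in Cbl-/-, 65.2 ± 3.2 in the libraries with the label Cbl-b-/- and 16.6 ± 1.3 in those labelled DKO (SD, n = 3). For Ccr1 they were the carbonic anhydrase gene Car13 (0.99), the ligand Ccl9 (0.99) and Stom (0.98). For Ccr2 they were Sirpb1a (0.97), Tank (0.96) and Rnd3 (0.96), and for Ccrl2 the interferon-induced genes Ifi206 (0.97) and Ifit1bl1 (0.97) with Manf (0.97). Sirpb1a, Ifi206 and Ifit1bl1 have close paralogs, which makes their counts uncertain. Among the receptors themselves r was 0.82 between Ccr1 and Ccr2, 0.86 between Ccr1 and Ccrl2, 0.72 between Ccr2 and Ccrl2, and -0.97, -0.81 and -0.83 between Cxcr4 and Ccr1, Ccr2 and Ccrl2. Of the genes compared, 85.6% to 98.3% had a lower r with a member of the positive pairs than its partner had. For the pairs with Cxcr4 this share was 0.165% to 8.08%.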

How the data were processed

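The deposited values are raw read counts for each gene, not normalized by the authors, from stranded messenger RNA libraries (per the labels' protocols). The build was GRCm38.p5 per the submitters' processing notes, with aligner, counter and strand setting not given in the sources used here. Each of the 15555 genes had at least 1 count in WT 1, so a gene without reads there had no row. Symbols, positions and exon lengths came from GENCODE's GRCm38 annotation and promoters from RefSeq.

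All 12 libraries were fitted with edgeR 4.0.16 in R 4.3.3 (filterByExpr, TMM factors, 1 mean per genotype, robust quasi-likelihood F test), and p-values were Benjamini-Hochberg adjusted over all 12671 genes of a comparison, with a threshold of 0.05. The pipeline was tested on simulated counts. Lists were described by counts and medians, with no set test. The alternatives were other scalings and filters, DESeq2 1.42.0, limma 3.58.1 voom, blocking by replicate number, fitting only the 2 genotypes at hand and omitting each library in turn. No pair of replicates differed as little as sampling noise (chi-square per degree of freedom 3.93 to 55.3, highest between DKO 3 and its partners).

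The receptors and lists were chosen with earlier results of these data known. Up to 5 genes per list and comparison with the smallest p among those past the threshold were named, with the receptors, the neighbours within 250 kb that passed against WT and the 3 genes most alike. Lztfl1, Fyco1, Mcm6, Dars and Mif were chosen after their values were seen. Some genes that this rule selects are not reported here.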

Additional observations from a re-analysis of the deposited data

Results flagged for a closer look

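For 2 receptors the change in the DKO-labelled libraries differed from the sum of the changes in both single knockouts, by a test of that difference itself in edgeR over all genes (15.7% of which passed). Cxcr4 was lower than the sum by -0.59 on the log2 scale (SE 0.13, adjusted p = 0.0039). Ccrl2 was higher than the sum by 0.83 (SE 0.23, adjusted p = 0.022), a call lost without WT 3 or Cbl-/- 1. All 3 libraries labelled DKO lay below the other 9 for Cxcr4 and above them for Ccrl2. That position can also arise when the changes add, so it does not bear on the departure.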

How the results depend on the processing

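The 4 receptors in 7 comparisons gave 412 values under the alternatives, of which 381 kept their direction and their side of the threshold, 18 lost the call, 9 gained it and 4 changed sign. Every change against WT in the DKO-labelled libraries kept its call and direction. Ccr2 was the receptor most open to the processing. Its excess in the DKO-labelled libraries over those labelled Cbl-b-/- was no longer called with total counts for scaling (0.21), no filter (0.30), limma voom (0.30) or the compared genotypes alone (0.31), and the excess over Cbl-/- was gained with the filter of 5 CPM (0.30) and by DESeq2 (0.30). Ccr2 against WT in the libraries with the label Cbl-b-/- was gained by DESeq2 (0.42) and with those genotypes alone (0.42), and between both single knockouts it turned to 0.00029 with total counts. The cause was not tested. Leaving out each library gave, for Ccr2, 0.37 to 0.46 in Cbl-/- against WT, 0.11 to 0.41 for DKO against Cbl-/-, 0.11 to 0.41 for DKO against Cbl-b-/-, -0.060 to 0.043 for Cbl-b-/- against Cbl-/- and -0.31 to -0.013 for the departure from the sum. For Ccr1 it gave -0.42 to -0.30 for Cbl-b-/- against Cbl-/- and 0.24 to 0.43 for the departure, and for Ccrl2 0.68 to 0.95 for the departure. Differences that were not called also moved by over 1.5 times: Ccrl2 in Cbl-/- against WT gave 0.11 to 0.34 and in Cbl-b-/- against Cbl-/- 0.046 to 0.32, and in Cbl-b-/- against WT Ccr1 gave 0.075 to 0.16 and Cxcr4 -0.32 to -0.13.

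The replicate numbers did not pair the libraries: 0 of 18 pairs of the same number in different genotypes had correlated deviations above 0.1 (-0.054 to 0.052), and 3 of 12 libraries correlated best with their own number. With the replicate block 1 call changed, that of Ccr2 for DKO against Cbl-/-, which was gained (0.29).

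The number of genes called over all genes moved by over 1.5 times in some settings. In Cbl-/- against WT it was 1251 and became 2753 with those genotypes alone, 733 or 801 without WT 1 or 2, and 784 to 803 without a Cbl-/- library. In Cbl-b-/- against WT it was 62 and became 145 by DESeq2, 37 without WT 1, and 35 or 41 without Cbl-b-/- 2 or 3. It went from 4211 to 2760 for DKO against Cbl-b-/- and from 934 to 1712 for Cbl-b-/- against Cbl-/- with those genotypes alone, and to 533 to 558 in the latter without a Cbl-/- library. With the compared genotypes alone, the movement list in Cbl-/- had 4 higher and 4 lower in place of 1 and 0. Scaling by total counts moved the share of calls that were higher in DKO against WT from 54.0% to 38.2%, and the median of all genes in the departure by -0.11. The lowest counts of the 4, those of Ccrl2, limit the precision of its differences among the other 3 genotypes.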
